A study of Mus musculus with 2 samples.

Results

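Stitched clusters are stretches of the genome in which several sites of open chromatin, all away from gene ends, lie close to one another. They were defined by the peak list of R848-treated macrophages. Peaks on chromosomes 1 to 19 with a −log10 q of at least 1.3 and no end of a protein-coding gene within 1 kb of their edges were taken as distal, neighbours were joined where the gap between them was at most 12500 bp, and joined runs of 3 or more peaks were kept. This gave 282 clusters with 1035 peaks, out of 12544 distal peaks at that q and 36721 R848 peaks on these chromosomes in all. The R848 list alone chose the members, so the number, spacing and height of their R848 peaks are described and not tested. The list of the untreated cells had no part in the choice, so overlap with an untreated peak was not selected directly. It is still not independent of the rule, which selects on q and spacing, since overlap rose with peak height, as given below. At the limits of the rule, a gap of 12.495 kb was joined and one of 12.503 kb was not, the lowest −log10 q of a member was 1.31881 against 1.2996 for the next peak left out, and the nearest gene end was 1030 bp from a member and 1000 bp from a peak left out.

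Both groups were wild-type mouse bone marrow-derived macrophages (BMDMs), primary cells that differentiate from bone marrow in culture, here under M-CSF at 20 ng/ml. The untreated group held 1 library, and the R848 group held 1 library of cells exposed for 2 h to 100 ng/ml of R848 (resiquimod), a synthetic agonist of the RNA sensor Toll-like receptor 7. Open chromatin was measured by ATAC-seq, in which the Tn5 transposase inserts adapters into accessible DNA, and both libraries had 15 cycles of PCR. Mouse strain, age and sex, and whether bone marrow was pooled, are not given in the sources used here. With 1 library in each group, every difference given here is between 2 libraries and not a tested effect of R848, and the 95% Wilson intervals cover counting error only.

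The untreated list held 68741 peaks on these chromosomes, more than the R848 list. The height of a peak is given as tags, the pileup of fragments at its summit, recovered from the deposited fold and p. The median was 7 tags over all untreated peaks and 8 over all R848 peaks, and the common background was 0.968 and 1.36 tags, a ratio of 1.4. Of 42 macrophage identity genes, 23 had an R848 peak and 17 an untreated peak within 1 kb of an end. The same counts were 3 and 1 of 23 for T and NK cell markers and 3 and 3 of 17 for B cell markers. They were 2 and 2 of 20 for stromal and endothelial markers, and 8 and 4 of 17 for both neutrophil and dendritic cell markers. For 24 housekeeping genes they were 21 and 14. The share over all genes is not given here, so these counts alone do not establish cell identity.

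Enhancers are stretches of DNA, often far from the genes they act on, where transcription factors bind and nucleosomes are displaced. Several enhancers near one another are common around genes that define a cell type and around genes that respond quickly to a stimulus. In macrophages the lineage factors PU.1 and C/EBPβ open many such sites, and Toll-like receptor 7, which sits in endosomes, acts through MyD88 and IRAK kinases on NF-kB and on the AP-1 factors of the Fos and Jun families.

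Sequence is shown for RefSeq windows that run from 250 bases before to 50 bases after an annotated gene start and hold the summit of a cluster peak, since these are where the clusters meet a start that is not the outer end of a protein-coding gene. The letters of 47 such windows, in 34 clusters, were searched. The first window is an internal start of Nfkb2, which encodes the NF-kB subunit p100, at chr19:46305445-46305744 on the plus strand of GRCm38.p6 (mm10), under an R848 peak of 15 tags with no untreated peak. The second is the start of the lncRNA gene Gm32287 at chr2:167777365-167777664 on the minus strand, under a 27-tag peak of a cluster near Cebpb that overlapped an untreated peak. Next is the start of Gm40491 at chr12:86833714-86834013 on the minus strand, under a 21-tag peak of a cluster near Irf2bpl that also overlapped one. Last is a start of Slc15a4, an endosomal transporter needed for Toll-like receptor 7 signalling, at chr5:127617343-127617642 on the minus strand, under a 12-tag peak with no untreated peak. Capitals mark matches, on either strand, to AP-1 (TGANTCA), ETS (AGGAAGT) and NF-kB (GGGANTTTC) letters, where N is any base.
Nfkb2 internal start: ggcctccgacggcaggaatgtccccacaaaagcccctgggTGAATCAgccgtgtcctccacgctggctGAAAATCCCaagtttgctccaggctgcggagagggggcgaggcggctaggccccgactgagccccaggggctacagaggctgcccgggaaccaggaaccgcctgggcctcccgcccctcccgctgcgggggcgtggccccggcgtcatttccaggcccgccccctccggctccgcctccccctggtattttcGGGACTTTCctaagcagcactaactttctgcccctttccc
Gm32287 start: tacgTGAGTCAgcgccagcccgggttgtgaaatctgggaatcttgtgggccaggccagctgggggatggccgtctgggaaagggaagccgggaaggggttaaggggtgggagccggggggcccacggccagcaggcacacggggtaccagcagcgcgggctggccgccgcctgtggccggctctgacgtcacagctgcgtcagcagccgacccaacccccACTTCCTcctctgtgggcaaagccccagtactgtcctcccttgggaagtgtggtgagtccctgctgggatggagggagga
Gm40491 start: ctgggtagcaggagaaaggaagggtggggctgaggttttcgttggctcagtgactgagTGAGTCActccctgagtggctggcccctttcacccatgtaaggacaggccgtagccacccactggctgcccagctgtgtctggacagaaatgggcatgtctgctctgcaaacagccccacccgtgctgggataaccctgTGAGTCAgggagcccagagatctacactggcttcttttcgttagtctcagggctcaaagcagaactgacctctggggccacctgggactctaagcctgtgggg
Slc15a4 start: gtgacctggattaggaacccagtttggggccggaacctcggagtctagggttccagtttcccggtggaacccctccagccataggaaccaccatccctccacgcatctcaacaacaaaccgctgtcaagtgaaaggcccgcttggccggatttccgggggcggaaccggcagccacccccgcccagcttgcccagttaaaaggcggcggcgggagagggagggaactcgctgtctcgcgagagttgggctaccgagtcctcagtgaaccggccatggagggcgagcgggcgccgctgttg
The Nfkb2 window held 2 NF-kB matches and 1 AP-1 match. Over all 47 windows, NF-kB letters were found in 3 (6.38%, against 1.13% of all 31365 RefSeq windows), but those 3 windows overlap one another at Nfkb2 and hold the same stretch. AP-1 letters were found in 5 windows (10.6%, against 7.85%) and ETS letters in 4 (8.51%, against 9.38%). The Slc15a4 window held none of the 3.

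A microRNA locus of blood cells also lay inside a cluster. The cluster over Tspoap1, at chr11:87749361-87759769, held Mir142, whose products are abundant in leukocytes, with the nearest R848 summit 173 bp from the hairpin. That peak had 20 tags and overlapped an untreated peak. The mature sequences from RefSeq, with the seed (bases 2 to 8) in capitals, lie at chr11:87756903-87756925 for miR-142a-3p and chr11:87756867-87756887 for miR-142a-5p, both on the plus strand, and miR-142b lies on the other strand at chr11:87756906-87756925.
mmu-miR-142a-3p: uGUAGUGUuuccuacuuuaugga
mmu-miR-142a-5p: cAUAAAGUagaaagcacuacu
mmu-miR-142b: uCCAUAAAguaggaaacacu
No seed was shared among the 3. The R848 peaks of this cluster had 14, 23, 20 and 14 tags, and the first 3 overlapped untreated peaks of 7, 7 and 8 tags. Mir142 was singled out after its values were seen, and the microRNAs in the other 4 clusters that held one were Mir6546, Mir5135, Mir7062 and Mir7240.

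Most clusters were small. Of the 282, 200 held 3 peaks, 52 held 4, 20 held 5 or 6 and 10 held 7 to 29. They spanned 1.303 to 80.076 kb with a median of 12.7 kb and 4.02 Mb in total, of which the peaks themselves covered 397 kb (9.87%), with a median gap of 4.524 kb. All 19 autosomes had clusters, from 5 on chromosome 19 to 25 on chromosome 1. The median cluster peak had 12 tags and the median of the other 11509 distal peaks had 9, while the median fold over local background was 4.01 and 4.17.

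**Figure D1:**
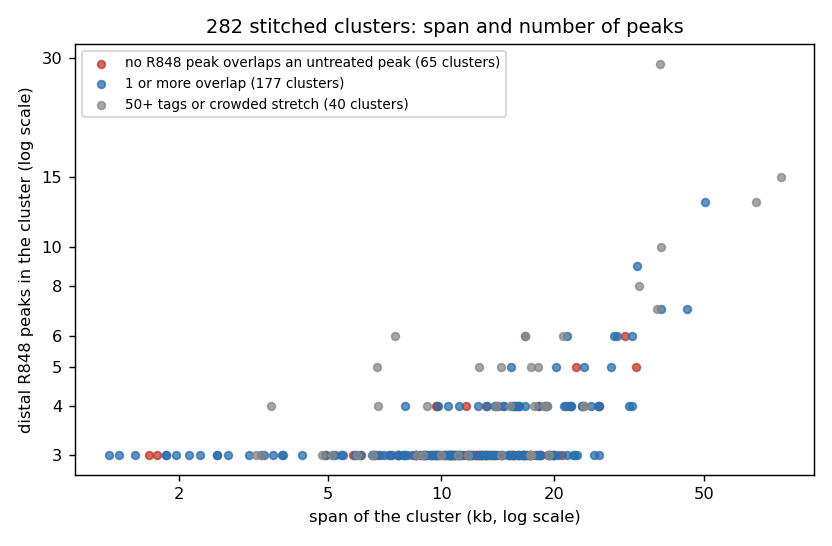
Span of each of the 282 clusters in kb (x axis, log scale) against its number of distal R848 peaks (y axis, log scale), 1 point per cluster. Red points are clusters with no R848 peak over an untreated peak, blue points have 1 or more, and grey points are the 40 clusters with a peak of 50 or more tags or in a crowded stretch, which include 6 of the 10 clusters with 7 or more peaks.

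Cluster peaks overlapped the untreated list more often than other distal peaks did. Of the 1035 cluster peaks, 443 (42.8%, interval 39.8 to 45.8) overlapped an untreated peak by at least 1 bp, against 3776 of 11509 other distal peaks (32.8%, 32 to 33.7). The share without an overlap, called R848-only here, was 66.4% over all distal peaks at that q and 69.5% over all autosomal R848 peaks. R848-only cluster peaks had a median of 10 tags (8 to 566) and shared ones a median of 16 (8 to 19160). In bulk cells, a site open in more of the cells and a site more open in each cell cannot be told apart. Read the other way, 595 untreated peaks lay inside the clusters and an R848 peak overlapped 479 of them (80.5%, 77.1 to 83.5). The share was 16.5% over all autosomal untreated peaks, but the rule picks stretches dense in R848 peaks and so sets this difference, which is no finding. The remaining 116 lay in 74 clusters (26.2%) and had a median of 9 tags.

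Most clusters were mixed. In 194 (68.8%) some R848 peaks overlapped an untreated peak and others did not. In 68 clusters (24.1%) none did, in 20 (7.09%) all did, and 55 (19.5%) held no untreated peak at all. Since 42.8% of all cluster peaks were shared and 200 clusters held only 3, mixed and unshared clusters would both arise without any grouping of shared peaks. Whether the counts depart from that was not tested. Joining the untreated list by the same rule gave 2035 clusters from 39379 distal peaks, and 62 of the R848 clusters (22%) overlapped one of these, so most were not runs of 3 or more close distal peaks in the untreated list.

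The excess in overlap went with the height of the peaks and with a minority of clusters. Among peaks of 8 to 9 tags, 20.1% of 303 in clusters and 21.2% of 6846 elsewhere overlapped the untreated list. Among peaks of 10 to 14 tags the shares were 36.5% and 38.1%, and both intervals overlapped at these heights. Above that, cluster peaks were shared less often than other distal peaks of like height. The shares were 58.8% (52.5 to 64.9) against 70.6% (68 to 73.1) at 15 to 29 tags and 86.3% (79.1 to 91.3) against 97% (94.1 to 98.5) at 30 or more.

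**Figure D2:**
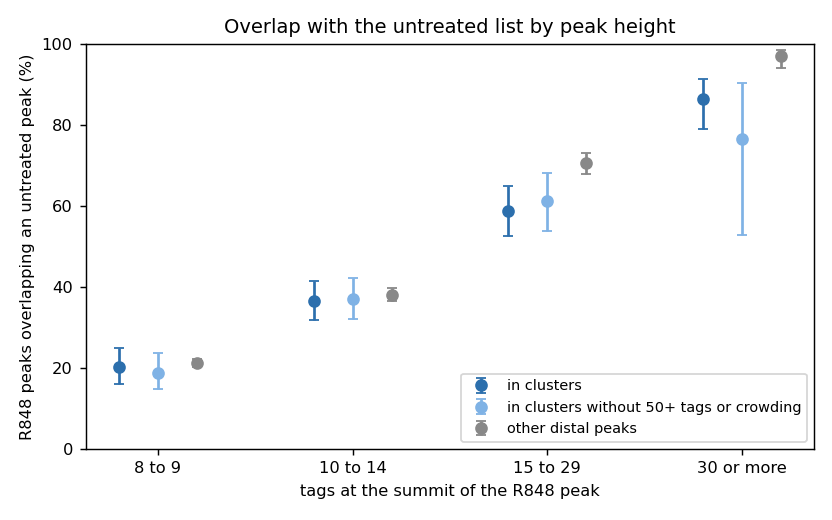
Share of R848 peaks that overlap an untreated peak (y axis, percent) by tags at the summit (x axis, 4 classes), for cluster peaks (dark blue), cluster peaks without the 40 clusters that have high or crowded peaks (light blue) and other distal peaks (grey). Points are shares and bars are 95% Wilson intervals, and at 15 to 29 tags the cluster peaks stand at 58.8% and the other distal peaks at 70.6%.

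Sets of clusters that stand apart were therefore split off, by 2 criteria chosen after the data were seen. In 20 clusters at least 1 R848 peak had 50 or more tags, and 26 clusters had at least 2 others within 500 kb, which makes 40 clusters in either set. The 20 clusters with high peaks held 90.1% of all tags summed over cluster peaks, and 3 of them held 84.8%: chr9:3000167-3038292, chr2:98662230-98667353 and chr14:19415698-19419012. Their peaks were as high in the untreated library. The 3 peaks at chr2:98662230-98667353 had 5704, 2999 and 19160 tags after R848 and 4658, 2971 and 20377 in untreated cells, and those at chr14:19415698-19419012 had 2694, 6599 and 3676 after R848 and 3553, 7772 and 4689 in untreated cells. The cluster at chr9:3000167-3038292 held 29 R848 peaks of 457 to 7322 tags, 28 of them shared, and 30 untreated peaks of 897 to 9908 tags. Of all 282 clusters, 9 began within 3.3 Mb of their chromosome's first base, which in mouse is next to the centromere, and 7 of these 9 were among the 20.

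Overlap with the untreated list was 78.5% (95 of 121) in the clusters with high peaks, 58.2% (71 of 122) in the crowded ones and 67.6% (144 of 213) in either. In the remaining 242 clusters it was 36.4% (299 of 822, 33.2 to 39.7), against 32.8% for other distal peaks, and 65 of the 68 clusters with no shared peak were among these 242. Their peaks had 8 to 47 tags, with a median of 11. The number of peaks in a run showed the same split. Overlap was 32.1% for single distal peaks, 35.7% for pairs, 37.7% in clusters of 3, 38% in clusters of 4 and 60.8% in clusters of 5 or more, where the median local background was 4.62 tags against 1.36 for single peaks. Without the 40 clusters, the last 3 shares were 36.2%, 35.7% and 38.2% (29.4 to 47.9). The remaining 242 still include clusters by related gene copies, described below, whose values are uncertain. Among them are Pisd with 7 of 9 peaks shared, chr7:59728836-59779215 with 9 of 13 and the cluster nearest to Snurf with 4 of 7. Whether repeated sequence, at which reads map to many places, has a part in the high or crowded clusters was not tested.

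Where both libraries had a peak, heights could be set side by side. Over the 443 shared cluster peaks, the R848 peak had a median of 16 tags and its untreated partner 11, and R848 had more tags in 65% (60.5 to 69.3). The R848 library also had the higher background. Distal R848 peaks at this q had at least 8 tags, while untreated peaks, taken with no threshold on q, began at 4. Without that threshold the R848 list began at 5. With each value divided by its library's background, R848 was higher in 44.2% (39.7 to 48.9) of these pairs and in 41.4% (39.8 to 43) of the 3776 pairs elsewhere. In the 242 clusters without high peaks or crowding, the medians were 13 and 8 tags, and R848 was higher in 75.9% of 299 pairs as given and in 54.2% (48.5 to 59.7) after division by background. In the other 40 clusters it was higher in 42.4% of 144 pairs as given and in 23.6% (17.4 to 31.2) after it. The division was added after the data were seen, and it turned the majority over all shared cluster pairs. The pairs are not independent, which the intervals do not allow for. At Tas2r134 1 untreated peak is the partner of 3 R848 peaks, and chr9:3000167-3038292 alone gave 28 pairs.

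**Figure D3:**
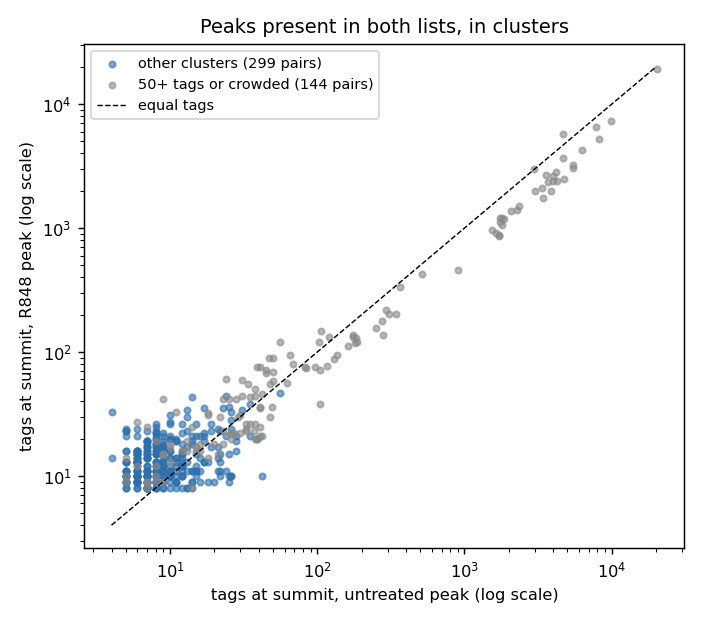
Tags at the summit of the 443 R848 cluster peaks that overlap an untreated peak (y axis, log scale) against tags of the highest untreated peak they overlap (x axis, log scale), with the line of equal tags. Grey points are the 144 pairs in clusters with high peaks or crowding, blue points are the 299 other pairs, of which 75.9% lie above the line before any scaling for depth.

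Cluster peaks lay closer to gene ends than other distal peaks, at a like share inside genes. Summits fell in the body of a protein-coding gene for 45.5% of cluster peaks and 45.4% of other distal peaks, while the median distance to a gene end was 18.3 kb and 28.4 kb. Of the clusters, 170 overlapped a gene body, 100 lay wholly inside 1 gene, 88 had their nearest gene end within 100 kb and 24 had none. Gene start windows held 3.77% of cluster summits and 4.04% of others. In addition 30 R848 peaks at gene ends, which the rule leaves out, lay between the peaks of 23 clusters. Transfer RNA genes lay under 10 cluster peaks (0.966%) and 49 others (0.426%), and 5 clusters held such genes: Fcgr3 with 11, Zfp213 with 5, Prss16 with 3, Zfp184 with 2 and Ncoa7 with 1.

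Genes were linked to a cluster where it overlapped the gene body or, failing that, where theirs was the nearest end within 100 kb. Over all autosomal protein-coding genes, 272 of 20665 (1.32%) were linked. Of 42 macrophage identity genes 7 were linked (16.7%), and of 28 genes of the NF-kB pathway and its feedback 4 were (14.3%). The counts were 3 of 37 for the primary Toll-like receptor response, 3 of 35 for inflammatory cytokines and mediators, 2 of 22 for chemokines, 2 of 29 for JAK-STAT and SOCS genes and 2 of 30 for Toll-like receptor signalling. None of 38 interferon response genes, 25 antigen presentation genes, 23 glycolysis genes or 24 cholesterol genes was linked. Markers of other cells gave 1 of 23 for T and NK cells, 1 of 17 for dendritic cells and none for B cells, neutrophils or stromal cells, and housekeeping genes gave 1 of 24. Lists of genes well studied in macrophages were chosen with results of these data known, so these counts are a description.

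**Figure D4:**
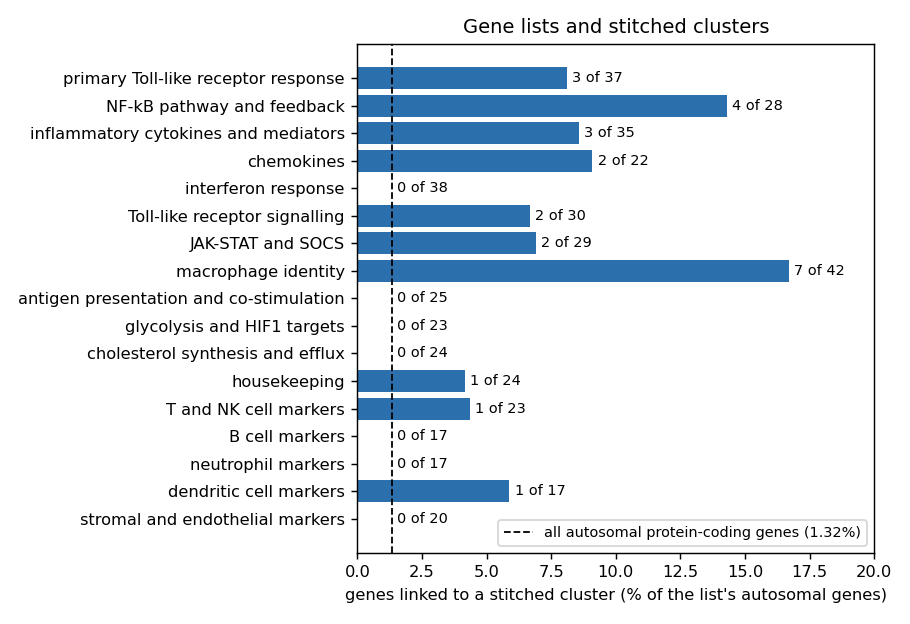
Share of each list's autosomal genes that are linked to a cluster (x axis, percent) for 17 gene lists (y axis), with the count beside each bar. The dashed line is the 1.32% of all autosomal protein-coding genes, and the macrophage identity list (7 of 42) and the NF-kB list (4 of 28) reach furthest beyond it.

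Clusters near the lineage factors of macrophages included 2 beside Cebpb, which encodes C/EBPβ. The larger, at chr2:167740634-167778092 and 50202 bp from the gene, held R848 peaks of 8, 10, 42, 19, 9, 33 and 27 tags in genome order. The last 5 overlapped untreated peaks of 9, 8, 8, 11 and 6 tags, and a further untreated peak of 5 tags stood alone. All of its high R848 peaks were present in untreated cells at lower height, with 42 tags beside 9, 33 beside 11 and 27 beside 6. Each ratio is more than the 1.4 of the common backgrounds. The local backgrounds at these peaks were also higher after R848, with 2.8 tags beside 1.06, 3.5 beside 1.26 and 3.3 beside 1.36. The nearer cluster, 7562 bp from Cebpb, had R848 peaks of 9, 9 and 10 tags and no untreated peak. Both counted as crowded.

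Other lineage genes had smaller clusters, which are given although only those of Ctsd and Tfeb came under the rule for naming. Spi1, which encodes PU.1, had R848 peaks of 11, 15 and 9 tags at chr2:91089076-91101649 and no untreated peak. Cx3cr1, the receptor for fractalkine, had 11, 13 and 12 tags at chr9:120043194-120059050 and no untreated peak. Both clusters were R848-only throughout, as were 24.1% of all 282. Over the whole macrophage identity list, 11 of 30 cluster peaks (36.7%) were shared. That share was 42.8% over all cluster peaks and 36.4% outside the high and crowded clusters. The differences were not tested. Fli1, an ETS factor, had R848 peaks of 8, 10 and 8 tags, of which the second overlapped an untreated peak of 6 tags, and 2 further untreated peaks of 7 and 10 tags stood alone. Tfeb, a regulator of lysosomal genes, had 14, 10, 10 and 10 tags, with an untreated peak of 6 tags under the first. Ctsd, the lysosomal protease cathepsin D, had 12, 13, 16 and 10 tags at 2203 bp or more from the nearest gene end, the first 2 overlapped untreated peaks of 12 and 13 tags, and an untreated peak of 9 tags stood alone. Fcgr3, an Fc gamma receptor, had 35, 34 and 23 tags beside 4 untreated peaks of 13 to 17 tags, in the stretch that holds 11 transfer RNA genes.

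Clusters with no shared peak, which make up 24.1% of all 282, included those of 3 genes that sense microbes or pass on the signal. All but 2 of their peaks had under 15 tags, and of distal peaks elsewhere 21.2% were shared at 8 to 9 tags and 38.1% at 10 to 14. Nod2, a cytosolic sensor of bacterial cell wall fragments, had R848 peaks of 13, 15, 15 and 9 tags across chr8:88650072-88668975. Irak2, a kinase downstream of MyD88, had peaks of 8, 12 and 9 tags inside the gene at chr6:113661606-113670186, at 23139 bp or more from a gene end. Map3k8, which encodes the kinase Tpl2 that acts upstream of ERK, had 11, 8 and 9 tags at chr18:4354632-4367718. None of the 3 clusters held an untreated peak. Slc15a4, named after its values were seen, had 16, 12 and 8 tags, with an untreated peak of 7 tags under the first and another of 6 tags alone.

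The NF-kB pathway and its brakes had 4 linked genes with 18 R848 peaks, of which 5 (27.8%) were shared, against 42.8% of all cluster peaks and 36.4% outside the high and crowded clusters. The difference was not tested. Zc3h12a, which encodes an RNase that degrades inflammatory mRNAs, had the most peaks of any R848-only cluster: 9, 11, 12, 16, 8 and 10 tags over chr4:125114623-125145519, with 1 untreated peak of 8 tags that overlapped none of them. An R848 peak of 14 tags at the gene's end, outside the rule, was R848-only as well. Nfkb2 had peaks of 20, 15 and 8 tags at chr19:46304335-46314415, and the first overlapped an untreated peak of 10 tags. The 15-tag peak is the one over the window printed above. Bcl3, a nuclear member of the IkB family, had 10, 12, 13, 21, 14 and 8 tags at chr7:19816188-19844924, with untreated peaks of 10, 5 and 15 tags under the second, the third and the fourth and 1 of 7 tags alone. Tnip1, which binds the ubiquitin-editing enzyme A20 and falls outside the rule for naming, had 26, 8 and 8 tags, with an untreated peak of 12 tags under the first.

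Socs3, an inhibitor of JAK-STAT signalling, shared a cluster with its neighbour Pgs1 at chr11:117959961-117992094. The R848 peaks had 15, 15, 9, 13, 11 and 13 tags, and the first 2 overlapped untreated peaks of 6 and 7 tags. A gene-end peak of 22 tags between them was R848-only. Il6st, the shared receptor subunit gp130, had 9, 8 and 10 tags at 23795 bp or more from a gene end, with untreated peaks of 6 and 6 tags under the first and the third.

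**Figure D5:**
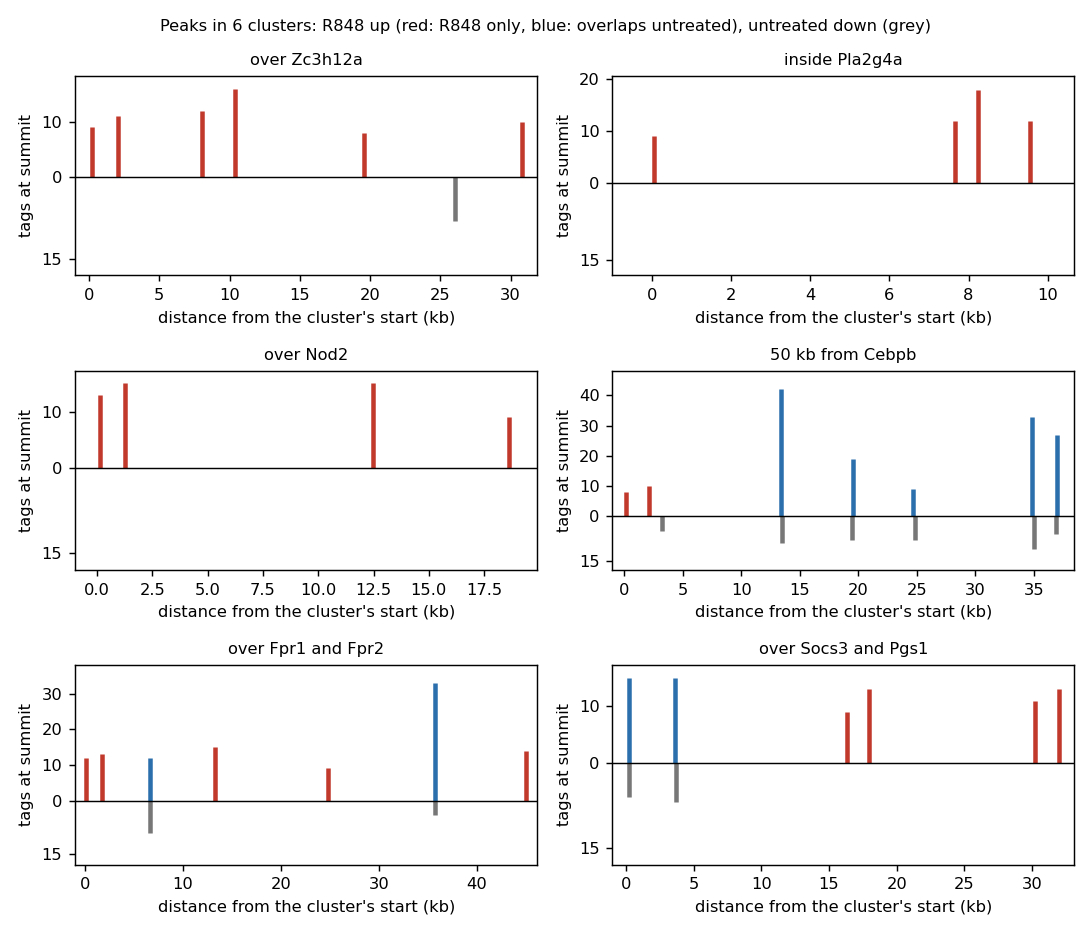
Peaks of 6 clusters by distance of the summit from the cluster's start in kb (x axis), with R848 tags upward and untreated tags downward (y axis). Red bars are R848-only, blue bars overlap an untreated peak and grey bars are untreated peaks, with none under the Pla2g4a and Nod2 clusters and 6 under the Cebpb cluster.

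Fosb and Fosl2, immediate early genes of the AP-1 family, had clusters of 3 peaks, as did 200 of the 282 clusters. Their peaks had 8 to 12 tags, beside a median of 11 outside the high and crowded clusters. Fosb had 12, 11 and 8 tags, with 2 shared and 4 untreated peaks of 7 or 8 tags in the same stretch. Outside the rule, 2 R848 peaks of 7 tags lay there within 1 kb of a gene end, and 1 of them overlapped an untreated peak. Fosl2 had 9, 8 and 10 tags at 34246 bp or more from a gene end, with an untreated peak of 8 tags under the last. Ier5, an immediate early gene outside that family, had 10, 12 and 9 tags, of which the last overlapped an untreated peak of 16 tags, higher than itself. An untreated peak of 8 tags stood alone, and one of 6 tags lay under an R848 peak of 15 tags at the gene's end. Of the 9 cluster peaks of the primary response list, 4 (44.4%) were shared. The share was 42.8% over all cluster peaks and 36.4% outside the high and crowded clusters. All 9 had 8 to 12 tags. Outside the high and crowded clusters, 18.8% of peaks of 8 to 9 tags and 36.9% of those of 10 to 14 were shared. The difference was not tested.

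Secreted mediators and the enzymes that make them had 10 cluster peaks at 3 genes, of which 1 (10%) was shared. The share was 42.8% over all cluster peaks and 36.4% outside the high and crowded clusters, where all 3 of these clusters lay. In 2 of the 3 none was shared, against 24.1% of all clusters and 65 of the 242 outside the high and crowded sets. The 10 peaks had 8 to 20 tags, and the differences were not tested. Pla2g4a, the phospholipase that releases arachidonic acid for prostaglandins and leukotrienes, had R848 peaks of 9, 12, 18 and 12 tags inside the gene at chr1:149832812-149842488 and no untreated peak. Inhba, which encodes the activin A subunit, had 20, 10 and 8 tags at chr13:15929913-15937580, 66676 bp from the gene, and no untreated peak. Il1rn, the antagonist of the interleukin 1 receptor, had 10, 9 and 9 tags, with an untreated peak of 9 tags under the first. A second cluster in the same locus, whose nearest gene end was that of Il1f10 at 12528 bp, had 9, 10 and 11 tags and no untreated peak, and was named after its values were seen.

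Chemokine genes had a cluster on each of 2 chromosomes. Ccl2, which attracts monocytes, had R848 peaks of 12, 15, 9 and 9 tags at 12598 bp or more from a gene end, with untreated peaks of 7 and 5 tags under the second and the fourth. Cxcl1, which attracts neutrophils, had 12, 9 and 13 tags at chr5:90881624-90897683, with an untreated peak of 7 tags under the first. The formyl peptide receptor genes Fpr1 and Fpr2, which detect bacterial peptides, lay under a cluster of 45.17 kb at chr17:17865282-17910451, outside the high and crowded sets. Its 7 R848 peaks had 12, 13, 12, 15, 9, 33 and 14 tags, and only the third and the sixth overlapped untreated peaks, of 9 and 4 tags.

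The other R848-only clusters with the most peaks lay by genes outside the lists. Fgd2, an activator of the GTPase Cdc42, had peaks of 10, 21, 14 and 27 tags at chr17:29381585-29395752, the highest of any R848-only cluster named here, and no untreated peak. A cluster 43867 bp from Lpp, a protein of cell adhesions, had 8, 8, 12, 11 and 12 tags, one 75764 bp from the growth factor gene Bmp2 had 11, 9, 9, 8 and 8, and one at chr11:110692727-110702438 with no gene end in reach had 11, 9, 17 and 9. None of these 3 held an untreated peak. Sp140, in a crowded stretch of related gene copies on chromosome 1, had 23, 24, 17 and 14 tags with folds of 2.3 to 3.21, and 2 untreated peaks of 26 and 15 tags lay beside them.

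Of the 20 clusters in which every R848 peak was shared, 6 were high or crowded and 14 were not. The 8 with the most peaks, named by rule, held all 6 of the former. The other two were chr1:190300172-190303490, with 28, 24 and 21 tags beside 4 untreated peaks of 12 to 26, and Mnt. Mnt encodes a repressor that pairs with MAX, and its cluster at chr11:74831887-74838746 had 22, 19 and 20 tags over untreated peaks of 12, 11 and 10. Gm40035 had R848 peaks of 22 to 55 tags and untreated peaks of 25 to 48, 9230019H11Rik had 119 to 220 and 140 to 343, and Gm40369 had 38 to 74 and 84 to 104. The cluster at chr8:20069503-20103149 had 16 to 26 and 12 to 42.

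Other clusters with many peaks lay by genes with related copies nearby or by runs of predicted genes, where reads could be split among copies and the values are uncertain. Sfi1 had 15 R848 peaks of 8 to 149 tags, of which 9 were shared, and Gm21119 had 13 of 15 to 31 tags, of which 10 were shared. Gm40363 had 10 of 23 to 137 tags with 9 shared, Tmem267 had 6 of 16 to 335 tags with 3 shared, and Pisd had 9 of 16 to 26 tags with 7 shared. At the imprinted Snrpn locus 2 clusters held 19 and 15 snoRNA gene copies. The first, chr7:59728836-59779215, had 13 R848 peaks of 14 to 36 tags with 9 shared, and the second, nearest to Snurf, had 7 of 12 to 19 tags with 4 shared.

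The T and NK cell, dendritic cell and housekeeping lists had 1 linked cluster each, and the lists of the remaining cell types had none. Klrb1c, a receptor of NK cells, was the nearest end at 13974 bp to peaks of 10, 12 and 17 tags, the last 2 over untreated peaks of 6 and 9 tags. Xcr1, a chemokine receptor of a dendritic cell type, had 8, 12 and 16 tags with an untreated peak of 7 tags under the last. A further cluster, named after its values were seen, stood 20494 bp from Ccr1, a chemokine receptor of macrophages in the same stretch of chromosome 9, and held a 58-tag R848 peak over a 50-tag untreated peak. Actb, which encodes beta actin and shares its cluster with Fbxl18, had 11, 10, 26 and 31 tags, of which all but the second overlapped untreated peaks, of 7, 15 and 10 tags.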

How the data were processed

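ATAC-seq was done on 1 untreated and 1 R848 library. The tools, per the submitters' processing notes, were bcl2fastq 2.19, Bowtie2 2.2.6 and MACS2 2.2.7.1 on mm10, and the sources used here do not give settings, read totals or the handling of duplicates and multiply mapped reads. A separate list was called by the authors for each library. The deposited fold is a ratio of summit pileup to local background within a library, and −log10 p and −log10 q, as deposited, belong to the same summit. The deposited score was not used. Tags and background were solved from fold and p, within 0.1% for 100% of peaks.

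Clusters were joined with pandas 2.3.3, numpy 2.4.6 and scipy 1.17.1 and drawn with matplotlib 3.10.9 under Python 3.11.15, using gene positions of RefSeq on GRCm38.p6. Gene ends are the outer ends of a gene, with no strand. Overlap meant 1 bp, and shares have 95% Wilson intervals. Members, gene lists and alternatives were chosen with earlier results of these data known, and the script was tested on simulated peak lists. The text names the 12 clusters with most R848 peaks, 8 each with most peaks among those with none and those with all shared, and up to 3 per gene list. Ikbkg, Tlr13, Irak1, Tab3, Pgk1 and Hprt are not autosomal and were left out. Motif letters within the peaks were planned but not run, for want of the genome sequence in this work. NF-kB letters in the gene start windows were shortened after the data were seen.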

Additional observations from a re-analysis of the deposited data

How the results depend on the processing

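Among 13 alternatives for joining and overlap, none turned the order of the shares: R848 peaks in clusters overlapped the untreated list more often than other distal peaks in each. None of these settings held peak height fixed, and in no height class given above were cluster peaks shared more often than other distal peaks. A gap of at most 5 kb gave 94 clusters with an overlap of 55.9%, 91.2% of untreated peaks inside overlapped, 15 clusters with none shared and 24 over an untreated cluster. A gap of at most 25 kb gave 548, 38.9%, 69.2%, 139 and 175 in that order. With a −log10 q of at least 2 there were 133 clusters, overlaps of 52.3% in clusters and 42.2% elsewhere, 85.4% of untreated peaks, 22 with none shared and 24 over an untreated cluster. With no threshold on q the same values were 1139, 27.6%, 21.9%, 67.1%, 469 and 321. Asking for an overlap of at least 50% of the shorter peak gave 30.1% elsewhere and 75.6% of untreated peaks, and counting gaps of up to 500 bp gave 47.5% in clusters, 36.7% elsewhere and 85.4%. Untreated peaks with a −log10 q of at least 1.3 gave 36.7%, 28% and 84.3%, and an untreated list cut to the length of the R848 list gave 33.8%, 25.9%, 86% and 103 clusters with none shared. Leaving out clusters with peaks of 50 or more tags gave 38.1% in clusters. Leaving out crowded ones as well gave 36.4% and 39 clusters over an untreated cluster, and these settings were chosen after seeing the data. The causes were not tested beyond what each setting removes or joins. Measuring from the summit gave 285 clusters, and asking for 2.5 kb to a gene end gave 224, of which 55 had none shared. Of the main values, 37 moved and 39 did not. Of the 44 named clusters, the count of R848-only peaks moved in 26 with the 5 kb gap, in 19 with the stricter q and in 1 to 7 under each other planned setting, and 26 listed genes were linked in the form given, 37 with every gene end within 50 kb and 24 with the nearest end only. No paired analysis was possible because each group has 1 library. Peaks of 8 to 12 tags lie near the 8 tags at which distal R848 peaks at this q began. The untreated list, with no threshold on q, began at 4 tags with a median of 7. R848-only says that no untreated peak was called there, not that the site was closed.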

Other observations

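Further clusters, chosen after their values were seen, lay by genes of phagocyte function. Of all 282 clusters, 55 (19.5%) held no untreated peak. Outside the high and crowded clusters, 18.8% of peaks of 8 to 9 tags and 36.9% of those of 10 to 14 were shared. Ncf4, a cytosolic subunit of an oxidase of phagocytes, had R848 peaks of 9, 16, 15 and 14 tags, of which the last was shared. Clec5a, a lectin receptor of myeloid cells, had 10, 13 and 12 tags and no untreated peak. Il17ra, the interleukin 17 receptor, had 12, 16 and 12 tags and no untreated peak. A cluster 26496 bp from Cd47, whose product signals to SIRPα on macrophages, had 10, 11, 10 and 9 tags and no untreated peak, while Sirpa itself had 9, 15, 11, 14 and 9 tags with the second and the fourth shared.

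Slc7a11, a cystine transporter, had 2 clusters. The first had R848 peaks of 10, 11 and 11 tags, with an untreated peak of 5 tags under the last, and the second had 11, 22 and 24 tags, with untreated peaks of 9 and 6 tags under the last 2. Alox5ap, which serves leukotriene synthesis, had 10, 10 and 11 tags with an untreated peak of 5 tags under the first. Kdm6b, a histone demethylase, had 17, 13 and 13 tags over untreated peaks of 7 and 8 tags at the first and the last. Batf, an AP-1 family factor, had 10, 14 and 11 tags, with untreated peaks of 6 and 4 tags under the first 2. The phosphatase gene Ptpre had 11, 11, 10 and 10 tags, and the semaphorin receptor gene Nrp2 had 15, 9, 8 and 9. Both held no untreated peak, as did 19.5% of all clusters. These clusters, too, fall outside the rule for naming.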
